A study of Saccharomyces cerevisiae with 12 samples.

Results

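Translation factors are the proteins that start, extend and end the synthesis of a polypeptide on the ribosome. The genes for 39 of them were followed in Saccharomyces cerevisiae. They were chosen by their known role, with earlier results of these data known. The cells were of the diploid strain BY4743 and were grown in HARVs, which are rotating vessels filled completely with medium. Of these 39 genes, 36 had a probe set among the 8968 tested on the Affymetrix yeast array: 25 for initiation, 8 for elongation and 3 for termination and recycling. TIF1, TEF1 and EFT1 had no probe set of their own in the annotation. The probe sets of their near-identical partners TIF2, TEF2 and EFT2 carry the suffix that marks sequences shared by several transcripts, so each of these 3 values may hold both genes of a pair.

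All cultures were of the same strain, grown in YPD at 30 °C and harvested in log phase. SMG 5 and SMG 25 were cells after 5 and 25 generations of low-shear modeled microgravity (LSMMG), in which the vessel turns around a horizontal axis and the cells keep falling through the fluid. Ctrl cells were grown for 5 or 25 generations (Ctrl 5 and Ctrl 25) in a vessel placed horizontally, so that it turned around a vertical axis. There were 3 arrays for each of these 4 groups, and the 6 Ctrl arrays formed one group unless stated otherwise. The growth notes of the samples name 5 generations throughout, and the generation was taken from the sample titles. The study's own picture of the arrays divides the Ctrl arrays between the generations in another way, and its methods leave out an aberrant control array without naming it, so results that rest on the generation of a Ctrl array carry that doubt. The labels do not say which arrays came from separate cultures, so the p-values measure only the spread between these arrays, which may be technical. LSMMG models weightlessness only in part, since the cells remain under normal gravity.

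In initiation, the cap-binding eIF4 proteins prepare the mRNA, eIF3 holds the small ribosomal subunit, and eIF2 brings the initiator tRNA in a ternary complex with GTP. eIF2B then recharges eIF2 with GTP, and is the step that amino acid starvation slows in yeast. Elongation factors deliver aminoacyl-tRNA, move the ribosome along the mRNA and, in fungi, include the ATPase eEF3. Release factors recognize the stop codon and an ATPase splits the ribosome for another round.

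Each value below is a ratio, on a linear scale, of a probe set's signal to a level of its own after each array was set to a median of 1. The ratio tells how a gene differs between arrays and does not tell how abundant its mRNA is, so no gene is ranked above another by level. The number of arrays limits the precision. Fold changes are log2 differences, and an adjusted p under 0.05 in limma, with Benjamini-Hochberg adjustment over all 8968 probe sets, is called a change.

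Most translation factors had lower mRNA in LSMMG. At 5 generations 23 of the 36 members fell and 3 rose (TIF4632, SUI1 and HEF3), where 18.3% of all tested probe sets fell and 22.5% rose. At 25 generations 20 fell and 3 rose (TIF11, CAM1 and HEF3), where 17.9% of all tested probe sets fell and 21.7% rose. Probe sets with a yeast gene name changed more often than unnamed ones, and among them 26.8% fell and 34.2% rose at 5 generations, and 25.4% fell and 33.0% rose at 25. The median log2 fold change of the members was -0.45 at 5 generations and -0.41 at 25, beside 0 and -0.01 for all tested probe sets and 0.13 and 0.15 for the named ones. Without replicates 1 and 2 of Ctrl 5, which are described below, the counts of lower members were 24 and 23, and those of higher members 3 and 5. Those 2 arrays lay toward LSMMG for most members that changed at both times. Larger counts or differences without them, here or for single genes below, are therefore not independent support.

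The same direction passed the test at both times for 20 members, of which 19 were lower and 1, HEF3, was higher. Over all tested probe sets, 14.3% fell at both times and 18.0% rose at both times, and among named ones 21.8% fell and 27.5% rose. For 18 members all 6 LSMMG arrays lay below all 6 Ctrl arrays, and for 0 members all lay above. The shares below and above were 13.3% and 15.8% of the tested probe sets, and 20.4% and 24.2% of the named ones. The 18 members are the 19 that fell at both times without DED1. The changes were mostly modest. Only RPG1, PRT1, TIF5 and TEF4 fell at least 2-fold at 5 generations, and TIF4631, DED1, PRT1 and TIF5 at 25. That is 11.1% of members each time, beside 5.40% and 5.12% of all tested probe sets and 8.62% and 8.15% of named ones. The share of members is thus not far from that of named probe sets. The 7 members that passed at neither time were TIF2, TIF34, SUI3, FUN12, GCD1, TEF2 and EFT2.

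**Figure D1:**
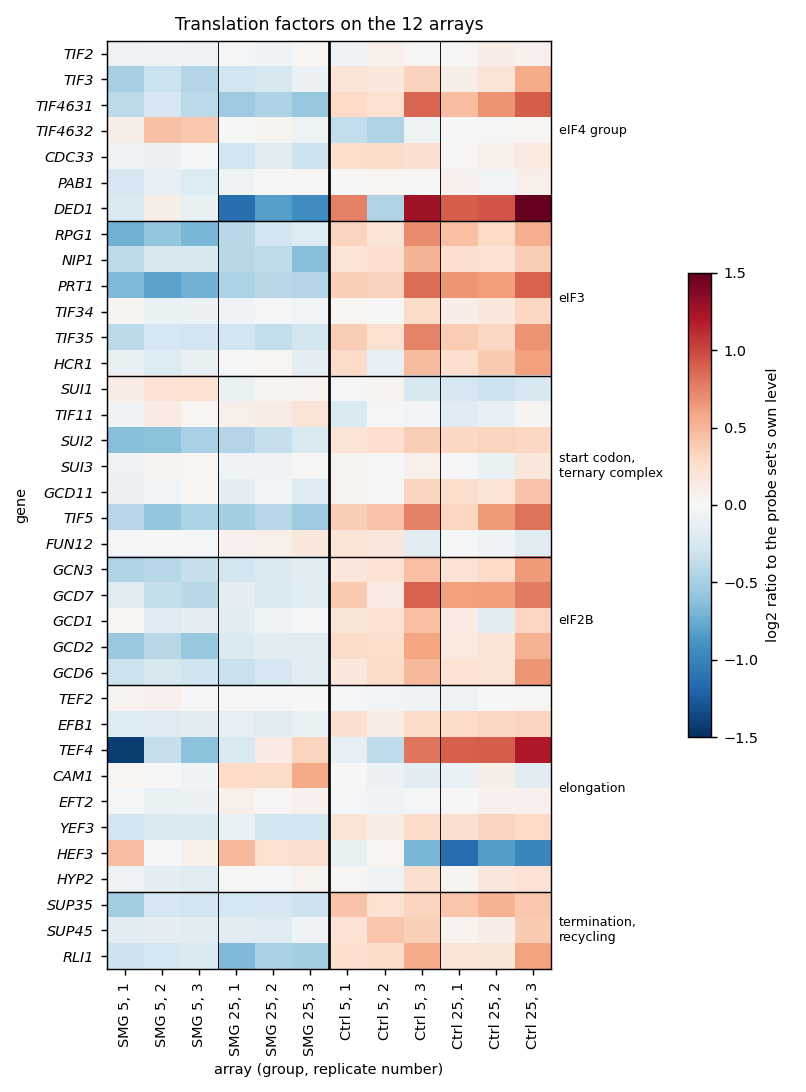
Log2 ratio of the 36 members (rows, by role) on the 12 arrays (columns, SMG 5, SMG 25, Ctrl 5 and Ctrl 25, 3 each); blue is below and red above the probe set's own level, and colors stop at 1.5 in either direction. Most rows are blue in LSMMG and red in Ctrl, with TIF4632, SUI1, TIF11, CAM1 and HEF3 running the other way, and replicates 1 and 2 of Ctrl 5 are pale for TEF4 and HEF3.

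The median change was larger in initiation than in elongation factors. At 5 generations 16 of 25 initiation factors fell and 2 rose, and 4 of 8 elongation factors fell and 1 rose. At 25 generations the counts were 15 lower and 1 higher for initiation, and 2 lower and 2 higher for elongation. Beside these, 26.8% of named probe sets fell and 34.2% rose at 5 generations, and 25.4% fell and 33.0% rose at 25. The share of the 8 elongation factors that fell at 25 generations is thus near that of named probe sets. At 5 generations the share of elongation factors that fell was larger than that of named probe sets. For initiation factors it was larger at both times. The median log2 fold change was -0.60 and -0.46 for initiation factors at 5 and 25 generations, and -0.16 and -0.04 for elongation factors. The difference between these classes was not tested, since genes are not replicates. On single arrays, the median ratio of the initiation factors was between 0.857 and 0.891 on the 6 LSMMG arrays and between 1.12 and 1.37 on the 6 Ctrl arrays. The median ratio of the elongation factors was between 0.915 and 1.04 on the LSMMG arrays and between 0.967 and 1.10 on the Ctrl arrays, so the groups were apart for initiation and overlapped for elongation. All 3 termination and recycling factors fell at both times, with medians of -0.61 and -0.66.

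**Figure D2:**
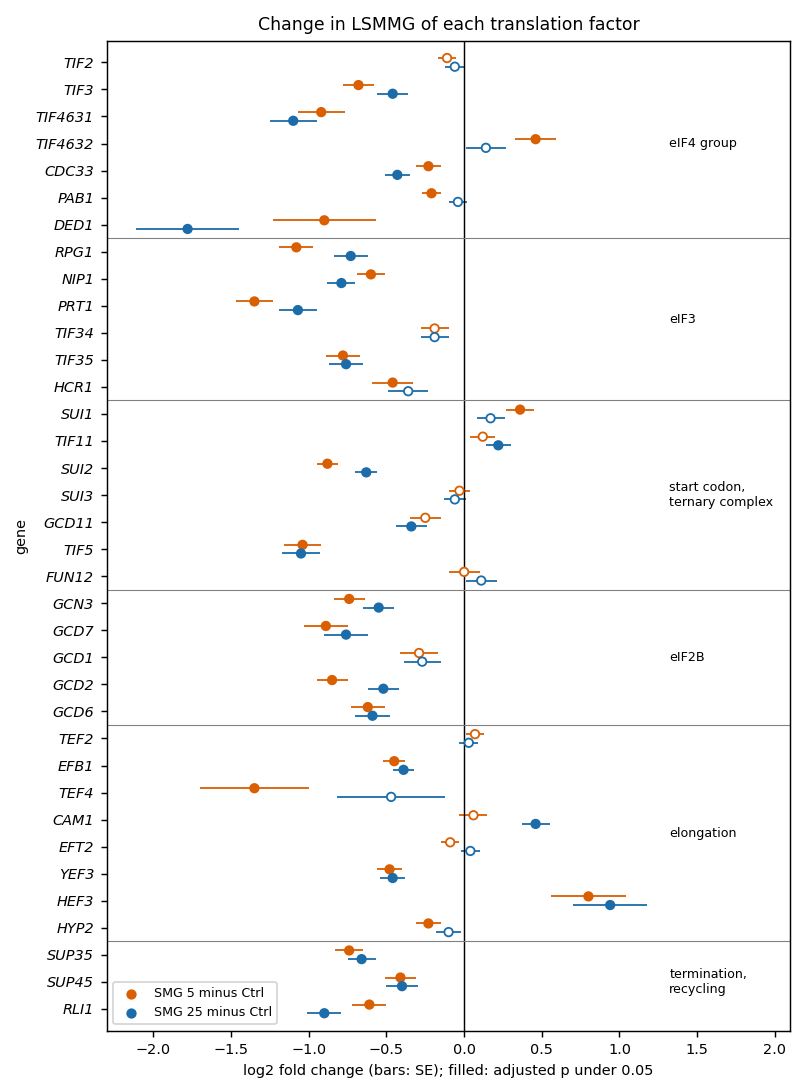
Log2 fold change of each member in SMG 5 (orange) and SMG 25 (blue) against the 6 Ctrl arrays, with SE bars from the limma fit; filled points passed an adjusted p of 0.05. The eIF3, eIF2B and termination genes lie left of 0 at both times, and the elongation factors run from -1.35 to 0.80 at 5 generations and from -0.47 to 0.94 at 25.

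In the eIF4 group, which binds the capped mRNA and unwinds it, 5 of 7 measured genes fell and 1 rose at 5 generations, and 4 fell and 0 rose at 25. TIF3, the helicase cofactor eIF4B, had ratios of 0.706, 0.799 and 0.739 in SMG 5 and 0.826, 0.847 and 0.940 in SMG 25, against 1.06 to 1.47 in Ctrl with a median of 1.15. All its LSMMG arrays were below all Ctrl arrays, with log2 fold changes of -0.68 ± 0.10 (SE, adjusted p = 0.0003) and -0.46 ± 0.10 (adjusted p = 0.004). TIF4631, one of the 2 genes for the scaffold eIF4G, had 0.763, 0.839 and 0.756 in SMG 5 and 0.687, 0.726 and 0.677 in SMG 25, against 1.17 to 1.88 in Ctrl with a median of 1.49. It fell by 0.92 ± 0.15 at 5 generations (adjusted p = 0.00042) and by 1.10 ± 0.15 at 25 (adjusted p = 0.00013), again with no overlap.

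DED1, a DEAD-box RNA helicase that helps the ribosome scan, varied more. Its ratios were 0.857, 1.065 and 0.927 in SMG 5 and 0.458, 0.566 and 0.526 in SMG 25, against 1.883, 1.927 and 2.818 in Ctrl 25 and 1.686, 0.732 and 2.416 in Ctrl 5. Replicate 2 of Ctrl 5 was therefore below all SMG 5 arrays. The log2 fold change was -1.78 ± 0.33 at 25 generations (adjusted p = 0.00098) and -0.90 ± 0.33 at 5 generations (adjusted p = 0.043). The call for DED1 at 5 generations did not hold against the Ctrl 5 arrays alone (-0.61, adjusted p = 0.22), nor without replicate 1 of SMG 5 (-0.83, adjusted p = 0.14).

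The other members of the group moved less. CDC33, the cap-binding eIF4E, fell by 0.43 ± 0.08 at 25 generations (adjusted p = 0.0012) and by 0.23 ± 0.08 at 5 (adjusted p = 0.039), a call that was lost without replicate 2 of SMG 5 (adjusted p = 0.12) and without replicates 1 and 2 of Ctrl 5 (adjusted p = 0.078). PAB1, the poly(A)-binding protein, fell at 5 generations (-0.21 ± 0.06, adjusted p = 0.019) and was at -0.04 at 25, and without replicate 1 of SMG 5 its adjusted p at 5 generations was 0.092. TIF2, the helicase eIF4A with a probe set that may also read TIF1, stayed between 0.950 and 1.02 on the LSMMG arrays and between 0.968 and 1.07 on the Ctrl arrays, with log2 fold changes of -0.11 and -0.06 that did not pass.

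eIF3, the large complex that binds the small ribosomal subunit, had 5 of 6 genes lower at 5 generations and 4 of 6 at 25, with median log2 fold changes of -0.69 and -0.75. PRT1, which encodes the b subunit, had ratios of 0.630, 0.571 and 0.606 in SMG 5 and 0.718, 0.747 and 0.738 in SMG 25, against 1.27 to 1.85 in Ctrl with a median of 1.56. It fell by 1.35 ± 0.12 at 5 generations (adjusted p = 8e-06), a level 2.55-fold lower, and by 1.07 ± 0.12 at 25 (adjusted p = 4.2e-05). RPG1, the a subunit, had 0.608, 0.669 and 0.624 in SMG 5 and 0.746, 0.821 and 0.868 in SMG 25, against 1.15 to 1.64 in Ctrl with a median of 1.31, and fell by 1.08 ± 0.11 (adjusted p = 1.6e-05) and 0.73 ± 0.11 (adjusted p = 0.00027).

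NIP1, the c subunit of eIF3, had 0.763, 0.845 and 0.849 in SMG 5 and 0.749, 0.767 and 0.641 in SMG 25, against 1.15 to 1.43 in Ctrl with a median of 1.19. Its log2 fold changes were -0.60 ± 0.09 (adjusted p = 0.00031) and -0.79 ± 0.09 (adjusted p = 4.4e-05). For these 3 subunits and for TIF35, the g subunit (-0.78 and -0.76, adjusted p = 0.00023 and 0.00026), the LSMMG and Ctrl arrays did not overlap. HCR1, which also takes part in recycling, fell at 5 generations (-0.46 ± 0.13, adjusted p = 0.016), and without replicate 2 of SMG 5 its adjusted p was 0.062. At 25 generations HCR1 was at -0.36 and just missed the threshold, with an adjusted p of 0.05036 that became 0.0023 without replicate 2 of Ctrl 5. TIF34, the i subunit, was at -0.19 both times and did not pass (adjusted p = 0.10 and 0.11).

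The factors that find the start codon and form the ternary complex did not move as one. Of 7 genes, 2 fell and 1 rose at 5 generations (28.6% and 14.3%), and 3 fell and 1 rose at 25 (42.9% and 14.3%). Their median log2 fold changes were -0.03 and -0.06. Of named probe sets 26.8% fell and 34.2% rose at 5 generations, and 25.4% fell and 33.0% rose at 25. The share that fell at 5 generations is thus near that of named probe sets. SUI2, the α subunit of eIF2 whose phosphorylation lowers initiation, had ratios of 0.640, 0.653 and 0.713 in SMG 5 and 0.739, 0.789 and 0.854 in SMG 25, against 1.15 to 1.29 in Ctrl with a median of 1.24. It fell by 0.88 ± 0.07 (adjusted p = 4.7e-06) and by 0.63 ± 0.07 (adjusted p = 4.3e-05), with no overlap of arrays. The other 2 subunits of eIF2 differed from it in size of change. SUI3, the β subunit, was at -0.03 and -0.06 and did not pass, and GCD11, the γ subunit, was at -0.25 at 5 generations (adjusted p = 0.071) and fell by 0.34 ± 0.10 at 25 (adjusted p = 0.016), a call lost without replicate 3 of SMG 25 (adjusted p = 0.072).

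TIF5, which makes eIF2 hydrolyze its GTP, was lowered in the same way as SUI2, with 0.746, 0.670 and 0.721 in SMG 5 and 0.700, 0.741 and 0.687 in SMG 25, against 1.25 to 1.76 in Ctrl with a median of 1.45. Its log2 fold changes were -1.04 ± 0.12 and -1.05 ± 0.12 (adjusted p = 3e-05 and 2.8e-05). The 2 small scanning factors went the other way. SUI1 (eIF1) rose at 5 generations (0.36 ± 0.09, adjusted p = 0.0091, and 0.055 against Ctrl 5 alone) and was at 0.17 at 25 (adjusted p = 0.18). TIF11 (eIF1A) was at 0.12 at 5 generations (adjusted p = 0.26) and rose by 0.22 ± 0.08 at 25 (adjusted p = 0.046), with an adjusted p of 0.16 without replicate 3 of SMG 25 and of 0.24 after the arrays were centred on named genes. FUN12, the GTPase eIF5B that joins the subunits, was at 0.00 and 0.11 and did not pass.

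eIF2B, the complex that exchanges GDP for GTP on eIF2, had 4 of 5 subunits lower at both times and 0 higher, with medians of -0.74 and -0.55. GCN3, its regulatory α subunit, had ratios of 0.732, 0.744 and 0.790 in SMG 5 and 0.824, 0.863 and 0.886 in SMG 25, against 1.12 to 1.56 in Ctrl with a median of 1.20 (-0.74 ± 0.10 and -0.55 ± 0.10, adjusted p = 0.00016 and 0.0012). GCD2, the δ subunit, had 0.678, 0.750 and 0.675 in SMG 5 and 0.857, 0.891 and 0.883 in SMG 25, against 1.109 to 1.504 in Ctrl with a median of 1.21 (-0.85 ± 0.10 and -0.52 ± 0.10, adjusted p = 5.8e-05 and 0.0017). GCD7, the β subunit, had 0.883, 0.780 and 0.752 in SMG 5 and 0.911, 0.852 and 0.880 in SMG 25, against 1.10 to 1.84 in Ctrl with a median of 1.54 (-0.89 ± 0.14 and -0.76 ± 0.14, adjusted p = 0.00039 and 0.0012). GCD6, the catalytic ε subunit, fell by 0.62 and 0.59 (adjusted p = 0.00081 and 0.0012), and none of these 4 genes overlapped between LSMMG and Ctrl arrays. GCD1, the γ subunit, was at -0.29 and -0.27 and did not pass (adjusted p = 0.066 and 0.086). Without replicate 2 of Ctrl 25 it did, at -0.36 and -0.34 (adjusted p = 0.010 and 0.013).

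The elongation factors did not change as one class. The eEF1A and eEF2 probe sets, which may read both genes of their pairs, stayed close to 1. TEF2 (eEF1A, which brings aminoacyl-tRNA) lay between 0.977 and 1.045 on the LSMMG arrays and between 0.946 and 1.011 on the Ctrl arrays, with log2 fold changes of 0.07 and 0.03. EFT2 (eEF2, which translocates the ribosome) lay between 0.930 and 1.056 on the LSMMG arrays and between 0.966 and 1.04 on the Ctrl arrays, with -0.09 and 0.04. None of these passed, and the direction of TEF2 at both times and of EFT2 at 25 generations depended on the scaling of the arrays.

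EFB1, the exchange factor of eEF1A, fell at both times. It had ratios of 0.870, 0.873 and 0.892 in SMG 5 and 0.918, 0.885 and 0.932 in SMG 25, against 1.08 to 1.26 in Ctrl with a median of 1.22 (-0.45 ± 0.07 and -0.39 ± 0.07, adjusted p = 0.00029 and 0.0007). YEF3, the fungal factor eEF3, had 0.828, 0.863 and 0.859 in SMG 5 and 0.937, 0.820 and 0.823 in SMG 25, against 1.08 to 1.26 in Ctrl with a median of 1.20 (-0.48 ± 0.08 and -0.46 ± 0.08, adjusted p = 0.00039 and 0.00049). For EFB1 and YEF3 the LSMMG and Ctrl arrays did not overlap, and these were the only elongation factors for which that held over all 6 arrays of each kind.

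The 3 genes for termination and ribosome recycling had lower mRNA at both times. SUP35, the GTPase eRF3, had ratios of 0.698, 0.837 and 0.828 in SMG 5 and 0.831, 0.843 and 0.807 in SMG 25, against 1.17 to 1.43 in Ctrl with a median of 1.33 (-0.74 ± 0.09 and -0.66 ± 0.09, adjusted p = 4e-05 and 8.6e-05). RLI1, the iron-sulfur ATPase that splits the ribosome, had 0.804, 0.830 and 0.855 in SMG 5 and 0.632, 0.715 and 0.694 in SMG 25, against 1.14 to 1.51 in Ctrl with a median of 1.20 (-0.61 ± 0.11 and -0.90 ± 0.11, adjusted p = 0.00071 and 4.8e-05). SUP45, the stop codon reader eRF1, fell by 0.41 and 0.40 (adjusted p = 0.0045 and 0.0055). The LSMMG arrays of all 3 genes were below all Ctrl arrays.

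Yeast keeps several of these factors as a pair of genes, and the pairs did not change together. Of 8 pairs, 5 had a probe set for each gene, with ANB1 and DBP1 as partners from outside the 39 genes. For each array the ratio of one gene was divided by that of the other, and the log2 of this quotient was compared between 6 LSMMG and 6 Ctrl arrays by an exact two-sided permutation test (924 arrangements, smallest possible p = 0.0022, adjusted over 5 pairs). The quotient shows unequal change of the genes and not which copy is the more abundant. All 5 pairs passed. When the permutation was kept within generations, 4 passed and ANB1 with HYP2 did not (exact permutation, adjusted p = 0.05). Pairs of unrelated genes were not tested in this way, and 44.5% of named probe sets had LSMMG and Ctrl arrays that did not overlap. The count of pairs is therefore not shown to be a trait of paralogs.

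The eIF4G pair was the most regular. TIF4632 had ratios of 1.066, 1.357 and 1.319 in SMG 5 and 0.997, 1.032 and 0.949 in SMG 25, against 0.730 to 1.02 in Ctrl with a median of 0.966, so that it rose at 5 generations (0.46 ± 0.13, adjusted p = 0.011) while TIF4631 fell. The call for TIF4632 at 5 generations was lost without replicate 2 of SMG 5 (0.40, adjusted p = 0.061) and after centring on named genes (0.38, adjusted p = 0.057), and at 25 generations it was at 0.14 (adjusted p = 0.43). The log2 quotient of TIF4631 over TIF4632 was -0.59 ± 0.13 in LSMMG and 0.72 ± 0.17 in Ctrl (SD, n = 6 each), a difference of -1.31 (exact permutation p = 0.0022, adjusted p = 0.0036) with no overlap between arrays.

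TEF4 and CAM1, both genes for the γ subunit of eEF1B, diverged with more spread. TEF4 had ratios of 0.373, 0.785 and 0.651 in SMG 5 and 0.852, 1.089 and 1.262 in SMG 25, against 1.867, 1.871 and 2.298 in Ctrl 25 and 0.918, 0.770 and 1.741 in Ctrl 5. Replicates 1 and 2 of Ctrl 5 were within the range of the LSMMG arrays. TEF4 fell at 5 generations (-1.35 ± 0.35, adjusted p = 0.0089, and 0.06 without replicate 1 of SMG 5) and was at -0.47 ± 0.35 at 25 (adjusted p = 0.32). Without replicates 1 and 2 of Ctrl 5 the value at 25 generations was -0.88 (adjusted p = 0.0071).

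CAM1 had 1.023, 0.996 and 0.968 in SMG 5 and 1.235, 1.220 and 1.482 in SMG 25, against 0.886 to 1.06 in Ctrl with a median of 0.939. It rose at 25 generations (0.46 ± 0.09, adjusted p = 0.0013, and 0.055 by the methods' test) and was at 0.06 at 5 generations (adjusted p = 0.61), or at -0.01 after centring. The log2 quotient of TEF4 over CAM1 was -0.55 ± 0.47 in LSMMG and 0.62 ± 0.67 in Ctrl (SD, n = 6 each), a difference of -1.17 (exact permutation p = 0.0087, adjusted p = 0.011) in which some arrays overlapped. For SMG 25 alone the difference was -0.93 and did not pass (exact permutation, adjusted p = 0.095).

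HEF3, the second gene for eEF3, was the single member that rose at both times, while YEF3 fell. HEF3 had ratios of 1.381, 0.987 and 1.052 in SMG 5 and 1.405, 1.174 and 1.177 in SMG 25, against 0.454, 0.558 and 0.506 in Ctrl 25 and 0.927, 1.017 and 0.622 in Ctrl 5. It was high in LSMMG and low in Ctrl 25, with replicate 1 of Ctrl 5 in between and replicate 2 of Ctrl 5 within the range of SMG 5. The log2 fold changes were 0.80 ± 0.24 (adjusted p = 0.020) and 0.94 ± 0.24 (adjusted p = 0.0084). The call for HEF3 at 5 generations was lost against Ctrl 5 alone (0.43, adjusted p = 0.11) and without replicate 1 of SMG 5 (0.65, adjusted p = 0.10). The log2 quotient of HEF3 over YEF3 was 0.47 ± 0.20 in LSMMG and -0.87 ± 0.54 in Ctrl (SD, n = 6 each), a difference of 1.34 (exact permutation p = 0.0022, adjusted p = 0.0036), and the arrays did not overlap.

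HYP2 and ANB1 encode eIF5A, the hypusine-containing factor that helps the ribosome through difficult peptide bonds, and ANB1 is the copy that yeast represses in oxygen. HYP2 had ratios of 0.947, 0.912 and 0.880 in SMG 5 and 0.996, 0.983 and 1.034 in SMG 25, against 0.960 to 1.18 in Ctrl with a median of 1.08. It fell at 5 generations (-0.23 ± 0.08, adjusted p = 0.038, and 0.14 without replicate 3 of SMG 5) and was at -0.10 at 25. ANB1 had 1.052, 0.938 and 0.934 in SMG 5 and 1.566, 1.587 and 1.738 in SMG 25, against 0.594, 0.431 and 0.619 in Ctrl 25 and 1.277, 1.080 and 0.744 in Ctrl 5.

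ANB1 rose by 1.14 ± 0.28 at 25 generations (adjusted p = 0.0059) and was at 0.40 ± 0.28 at 5 (adjusted p = 0.29). Against the Ctrl 5 arrays alone the value at 5 generations turned to -0.05 (adjusted p = 0.87), and without replicates 1 and 2 of Ctrl 5 it was 0.73 and passed (adjusted p = 0.0017). The log2 quotient of ANB1 over HYP2 was 0.40 ± 0.33 in LSMMG and -0.54 ± 0.66 in Ctrl (SD, n = 6 each), a difference of 0.93 (exact permutation p = 0.022, adjusted p = 0.022) with overlap. For SMG 5 alone it was 0.63 and did not pass (exact permutation, adjusted p = 0.24).

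DBP1, the paralog of DED1, gave the pair with the widest divergence. It had ratios of 2.045, 2.330 and 2.337 in SMG 5 and 0.989, 1.405 and 1.017 in SMG 25, against 0.483 to 1.27 in Ctrl with a median of 0.698. It rose by 1.61 ± 0.24 at 5 generations (adjusted p = 0.00022) and was at 0.62 ± 0.24 at 25 (adjusted p = 0.057), where it passed without replicate 1 of Ctrl 5 (0.78, adjusted p = 0.0030). The log2 quotient of DBP1 over DED1 was 1.18 ± 0.15 in LSMMG and -1.28 ± 0.89 in Ctrl (SD, n = 6 each), a difference of 2.46 (exact permutation p = 0.0022, adjusted p = 0.0036) with no overlap. Replicates 1 and 2 of Ctrl 5 were at -0.41 and -0.07, and the other Ctrl arrays lay between -2.32 and -1.25. The size of the difference therefore depends on which Ctrl arrays are used.

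**Figure D3:**
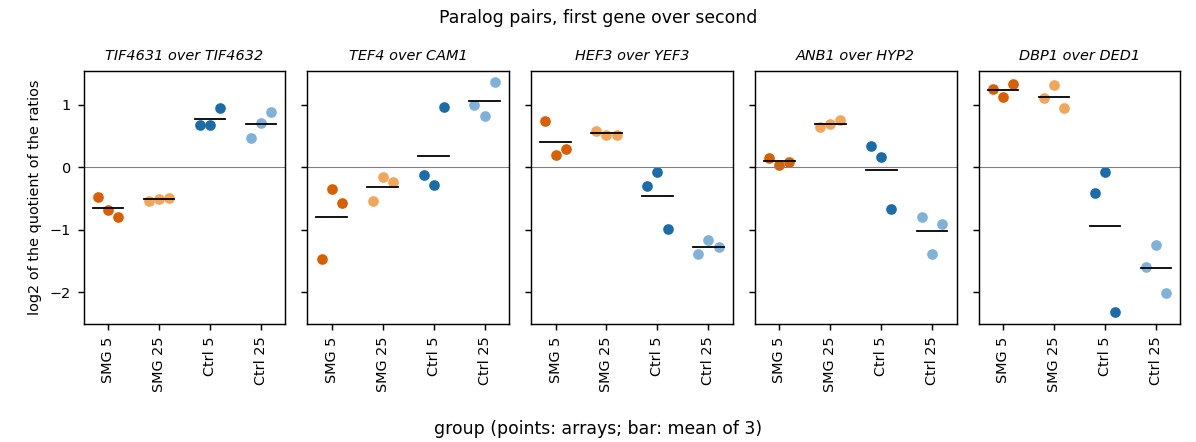
Log2 quotient of the ratios of 5 paralog pairs (first gene over second) on each array, with a bar at the mean of 3 arrays; groups from left to right are SMG 5, SMG 25, Ctrl 5 and Ctrl 25. TIF4631 over TIF4632, HEF3 over YEF3 and DBP1 over DED1 are fully apart between LSMMG and Ctrl. Replicate 2 of Ctrl 5 reaches the LSMMG arrays for TEF4 over CAM1, and replicates 1 and 2 of Ctrl 5 do for ANB1 over HYP2.

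Between SMG 25 and SMG 5, 0 of 36 members passed in limma, where 1.71% of all tested probe sets did. At an unadjusted p under 0.05, 5 members were higher and 3 lower in SMG 25 (13.9% and 8.33%). Of all tested probe sets 6.77% and 5.27% were, and of named ones 9.99% and 6.89%. The methods' test also gave 0 members at an adjusted p under 0.05. The count of 0 depended on the setting: 5 members passed after quantile normalization, 10 with array weights and 2 without replicates 1 and 2 of Ctrl 5. The member with the smallest adjusted p was CAM1 (0.39 ± 0.10, adjusted p = 0.085). Between Ctrl 25 and Ctrl 5, 0 members passed (0.134% of all tested probe sets), and the methods' test gave 0. At an unadjusted p under 0.05 there were 4 members (11.1%), beside 24.3% of all tested and 32.8% of named probe sets. The interaction of LSMMG with generation passed for 0 members (0.167% of all tested). For it 5 members had an unadjusted p under 0.05 (13.9%), beside 15.1% of all tested and 19.3% of named probe sets. With array weights, 4 members passed between Ctrl 25 and Ctrl 5 and 5 for the interaction.

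The 6 Ctrl arrays were not alike. Over the 20 members that changed at both times, the median share of the way from the mean of the other 5 Ctrl arrays to the LSMMG mean, on the log2 scale, was 13.6%, 23.7% and -29.9% for replicates 1, 2 and 3 of Ctrl 5, and 9.84%, 2.31% and -33.2% for those of Ctrl 25. Replicates 1 and 2 of Ctrl 5 were shifted toward LSMMG for 18 of the 20 members each, and replicate 3 of Ctrl 5 and of Ctrl 25 for 1 each. CDC33 was among the exceptions, with ratios of 1.196 and 1.208 in replicates 1 and 2 of Ctrl 5 and 1.010 to 1.183 on the other 4 Ctrl arrays. The 20 members passed tests that favor genes whose Ctrl and LSMMG arrays lie apart. The shares may therefore understate the shift over all members. TEF4, for which replicates 1 and 2 of Ctrl 5 were within the LSMMG range, is not among the 20. Without replicate 3 of Ctrl 5, so that replicates 1 and 2 alone stood for Ctrl 5, 10 members passed between Ctrl 25 and Ctrl 5 and 5 members passed for the interaction. What sets these arrays apart was not tested.

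Genes that act on or beside the translation factors were taken as 4 further lists with 44 genes, all with a probe set. The lists were drawn up with earlier results of these data known, so their counts are a description and not independent support. The shares over all tested probe sets and over named genes, given above for each time, apply to these lists too. Of the 16 enzymes that modify the factors, 11 were lower and 1 was higher at each time (68.8% and 6.25%), with medians of -0.69 and -0.64. The genes were not all the same, and 10 were lower and 0 higher at both times. LIA1, the hydroxylase that completes hypusine on eIF5A, had ratios of 0.480, 0.495 and 0.453 in SMG 5 and 0.443, 0.429 and 0.401 in SMG 25, against 1.49 to 2.46 in Ctrl with a median of 1.89. It was 4.01-fold lower at 5 generations (SE 0.14 on the log2 scale, adjusted p = 1.2e-06) and fell by 2.17 ± 0.14 on the log2 scale at 25 (adjusted p = 1e-06), further than any of the 36 members did at either time. DPH1, which acts at the start of making diphthamide on eEF2, had 0.722, 0.625 and 0.666 in SMG 5 and 0.575, 0.599 and 0.509 in SMG 25, against 1.27 to 1.72 in Ctrl with a median of 1.46 (-1.12 ± 0.11 and -1.38 ± 0.11, adjusted p = 1.1e-05 and 2.9e-06). The arrays of LIA1 and of DPH1 did not overlap. Of the genes for their substrates, HYP2 and the EFT2 probe set had smaller values, and ANB1, the other eIF5A gene, rose at 25 generations, all as given above.

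DYS1 and EFM6 of this list differed between SMG 25 and SMG 5. DYS1, which starts hypusine synthesis, had ratios of 1.052, 1.047 and 1.081 in SMG 25 and 0.787, 0.788 and 0.719 in SMG 5, a difference of 0.47 ± 0.08 (adjusted p = 0.018, and 0.11 without replicate 3 of SMG 5). EFM6, a methyltransferase of eEF1A, had 1.087, 0.962 and 0.833 in SMG 25 and 1.786, 1.683 and 1.675 in SMG 5, a difference of -0.84 ± 0.19 (adjusted p = 0.04966, and 0.25 without replicate 3 of SMG 25). EFM6 was the enzyme that rose at 5 generations (1.04 ± 0.16, adjusted p = 0.00033).

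**Figure D4:**
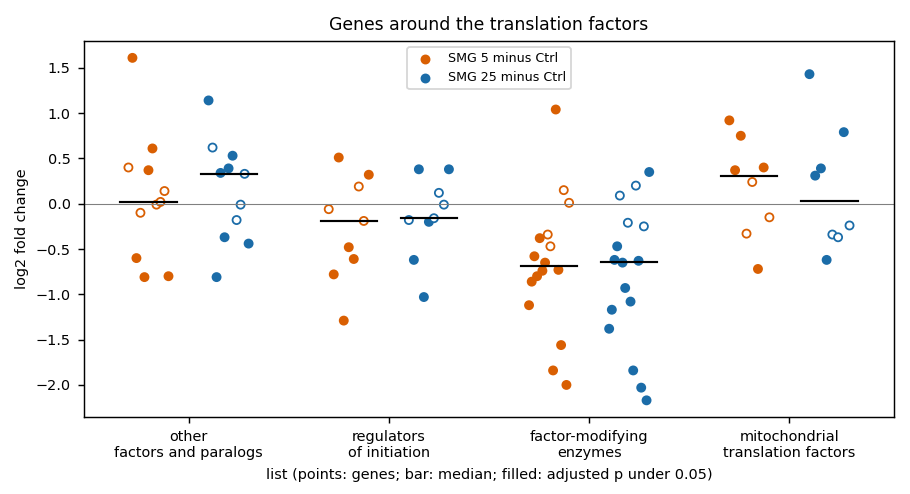
Log2 fold change of 44 related genes in SMG 5 (orange) and SMG 25 (blue) against Ctrl, by list, with a bar at the median; filled points passed an adjusted p of 0.05. The factor-modifying enzymes lie mostly below 0, with medians of -0.69 and -0.64, and the other 3 lists hold genes on both sides.

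Of 9 regulators of initiation, 4 fell and 2 rose at 5 generations (44.4% and 22.2%), and 3 fell and 2 rose at 25 (33.3% and 22.2%). GCN2, the kinase that phosphorylates SUI2 in starvation, fell by 0.48 ± 0.07 (adjusted p = 0.00028) and by 0.20 ± 0.07 (adjusted p = 0.046, and 0.14 without replicate 2 of SMG 25). GCN20, which helps to activate GCN2, fell by 0.61 ± 0.08 at 5 generations (adjusted p = 0.00015) and was at -0.16 at 25 (adjusted p = 0.15). It differed between SMG 25 and SMG 5 by 0.45 ± 0.10 (adjusted p = 0.046), a call lost without replicate 3 of SMG 25 (adjusted p = 0.24).

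Of 11 other factors and paralogs, 3 fell and 3 rose at 5 generations (27.3% each, beside 26.8% and 34.2% of named genes), and 3 fell and 4 rose at 25 (27.3% and 36.4%, beside 25.4% and 33.0%), shares near those of named genes. NEW1, an ATPase related to eEF3, fell by 0.81 ± 0.09 and 0.37 ± 0.09 (adjusted p = 2.6e-05 and 0.0054), and TMA64, a ribosome-associated protein related to eIF2D, by 0.80 ± 0.09 and 0.44 ± 0.09 (adjusted p = 2.9e-05 and 0.0018). Among the 8 factors of mitochondrial translation, 4 rose and 1 fell at each time (50% and 12.5%), and without replicate 1 of SMG 25 only 2 rose at 25 generations. AIM23, the mitochondrial initiation factor 3, rose by 0.92 ± 0.12 and 1.43 ± 0.12 (adjusted p = 0.0001 and 5e-06). IFM1, the mitochondrial initiation factor 2, rose by 0.75 ± 0.10 and by 0.39 ± 0.10 (adjusted p = 0.00012 and 0.0096, the second being 0.062 without replicate 1 of SMG 25).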

How the data were processed

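The 12 arrays were hybridized with biotin-labeled targets of total RNA, and the values come from the series' deposited value table. RMA and GeneSpring were used by the authors to process the scans. What was deposited is a linear ratio for each probe set and array. The median over an array is 1, that over a probe set lies between 0.9935 and 1.0105, and single ratios reach from 0.01 to 205.8. The step that made the ratios is not given in the sources used here, nor is a genome build. Intensities were not used here, so the authors' intensity filter could not be applied and signal over background is unknown.

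Values were analyzed as log2 of the deposited ratio, without a constant. Of 10928 probe sets, 1746 for S. pombe, 213 array controls and 1 with several genes were left out, and 8968 were tested, of which 5498 have 1 S. cerevisiae gene name in the platform annotation and 3470 have none. A model with Ctrl, SMG 5 and SMG 25 was fitted in limma 3.58.1 (R 4.3.3), and a second with Ctrl divided by generation gave Ctrl 25 against Ctrl 5 and the interaction. The steps were tested on simulated data. No fold minimum was set. The members and lists were chosen with earlier results of these data known. Values by array are given for the 2 members of each role with the largest moderated statistic at each time and for paralog pairs, and related genes for the 2 per list; DYS1 and EFM6 were added after their values were seen. Replicate numbers were not used to pair the arrays in the main fit. Alternatives were other scalings, priors, weights, probe sets, controls, the methods' test and leaving out arrays. Plots were made in Python 3.11.15 using matplotlib 3.10.9. Sequences were not used here.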

Additional observations from a re-analysis of the deposited data

Results flagged for a closer look

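For ANB1, the log2 fold change at 25 generations against Ctrl 25 exceeded that at 5 generations against Ctrl 5 by 1.64 ± 0.27 (limma interaction, adjusted p = 0.042). In the same model, with 4 groups, Ctrl 25 against Ctrl 5 was at -0.90 ± 0.19 (limma, adjusted p = 0.065). SMG 25 against SMG 5 was at 0.74 ± 0.32 in the model with a single Ctrl group (limma, adjusted p = 0.37). The spread in the latter model includes any difference between Ctrl 5 and Ctrl 25. Its SE and p-value are therefore not comparable with those of the 4-group model. Both differences enter the interaction, and the generation of the Ctrl arrays carries the doubt given at the start. All 3 SMG 25 arrays (1.566 to 1.738) lay above all Ctrl 25 arrays (0.431 to 0.619), while the SMG 5 arrays (0.934 to 1.052) lay within the range of the Ctrl 5 arrays (0.744 to 1.277). The interaction was 1.20 without replicates 1 and 2 of Ctrl 5 (adjusted p = 0.057), 1.61 without replicate 3 of SMG 5 (adjusted p = 0.17), and 1.64 with the replicate block (adjusted p = 0.078).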

How the results depend on the processing

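Leaving out 1 array at a time, the members higher and lower at 5 generations numbered 2 to 3 and 18 to 24, and at 25 generations 2 to 3 and 19 to 21. The members past the threshold numbered 0 to 1 between SMG 25 and SMG 5 (1 without replicate 2 of Ctrl 5), 0 to 10 between Ctrl 25 and Ctrl 5, and 0 to 5 for the interaction. Against controls of the same generation 1 of the members was higher at 5 generations. With at least 2-fold required, 0 members were higher and 4 lower at each time. Without replicates 1 and 2 of Ctrl 5, 5 members were higher at 25 generations and 2 members differed between SMG 25 and SMG 5. Quantile normalization gave 5 members there and array weights 10, and array weights gave 4 members between Ctrl 25 and Ctrl 5 and 5 for the interaction. With the replicate block, 21 members fell and 3 rose at 5 generations, 20 fell and 3 rose at 25, and the calls of CDC33 (adjusted p = 0.063) and HYP2 (adjusted p = 0.05021) at 5 generations were lost. The replicate numbers did not pair the arrays throughout. Of 18 pairs with the same number, 5 had a correlation over 0.1, and an array of the same number was the closest for 4 of 12. Among these 5 pairs were Ctrl 5 and Ctrl 25 arrays of equal number, with correlations of 0.103, 0.312 and 0.49 for replicates 1, 2 and 3. Replicate 1 of Ctrl 5 correlated more with replicate 2 of Ctrl 25 (0.4). Whether Ctrl arrays of equal number share a batch was not tested.

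The median of the elongation factors among the members at 25 generations was -0.12 after centring on named genes and 0.03 with HYP2 counted as an initiation factor, so it has no settled sign. Leaving out 1 array, it ran from -0.05 to -0.02 at 25 generations and from -0.18 to -0.14 at 5, and that of the initiation factors from -0.51 to -0.42 and from -0.62 to -0.55. Leaving out 1 array, the difference ran from -1.36 to -1.26 for TIF4631 minus TIF4632, from -1.36 to -0.99 for TEF4 minus CAM1, from 1.24 to 1.5 for HEF3 minus YEF3, from 0.77 to 1.11 for ANB1 minus HYP2 and from 2.25 to 2.70 for DBP1 minus DED1. TEF4 minus CAM1 was -0.93 for SMG 25 alone, and ANB1 minus HYP2 was 0.93 with an exact permutation within generations (adjusted p = 0.05) and 0.63 for SMG 5 alone.

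Some small values changed sign: TIF4632 at 25 generations (-0.01) and ANB1 at 5 (-0.05) against controls of the same generation, SUI3 at 5 without replicate 1 of SMG 5 (0.01), FUN12 at 5 with array weights (0.05), without replicates 1 and 2 of Ctrl 5 (0.09) and without replicate 1 of Ctrl 5 (0.04), and, after centring, TEF2 (0 at 5 and -0.06 at 25), CAM1 at 5 (-0.01) and EFT2 at 25 (-0.04). Of 100 values of named genes, 60 kept direction and call in all alternatives run. The cause of the other changes was not tested. No member has several probe sets and each shared probe set already stood for its pair, so these alternatives gave no other value.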
